A study of Bos taurus with 42 samples.

Results

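*PRRX1*, *TBX15* and *PDGFRB* were followed through 3 tissues, hind limb muscle, cerebrum and liver, of 14 bovine fetuses at day 50 of gestation. The 3 genes were taken by the Ensembl identifiers that the study's supplementary tables pair with these symbols, ENSBTAG00000004570 for *PRRX1*, ENSBTAG00000007767 for *TBX15* and ENSBTAG00000002804 for *PDGFRB*, out of 22664 genes with counts. The fetuses came from Angus-cross heifers that were assigned at breeding either to 100% of their energy requirement for gain (control, CON) or to 60% of the CON intake (restricted, RES). Each diet had 7 fetuses, of which 1 was female in CON and 2 were female in RES, and each fetus gave 1 library per tissue, 42 in all. The tissues were taken whole, so that fewer cells of a type and less RNA per cell cannot be told apart in any value given here. The muscle libraries are labelled as left hind limb, and held the transcripts of more than muscle cells, as shown further on.

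*PRRX1* encodes a homeodomain transcription factor of the mesenchyme of the limb bud and the face, the loose embryonic tissue that gives rise to bone, cartilage, tendon and connective tissue. *TBX15* encodes a T-box transcription factor of limb mesenchyme and developing skeletal elements that is also known from skeletal muscle. *PDGFRB* encodes the beta receptor for platelet-derived growth factor, a tyrosine kinase on the cell surface that is carried by fibroblasts, by the pericytes and smooth muscle cells around blood vessels and by the stellate cells of the liver. Its ligand PDGFB, released by endothelium, draws pericytes to growing vessels.

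Muscle libraries held 5384018 to 7592149 counts, liver libraries 6658218 to 12741299 and cerebrum libraries 4145093 to 7576159. Levels are in CPM, the read counts brought to a common library size, after scaling over the 42 libraries by the trimmed mean of M-values (TMM). They are compared between libraries for one gene, not between genes, since no gene length was used. A count of 0 allows up to 3 counts, which is 0.396 to 0.724 CPM of the library total in cerebrum libraries and 0.235 to 0.451 CPM in liver libraries, for counting error only. *PRRX1*, *TBX15* and *PDGFRB* passed the low-count filter in the cerebrum and in muscle, and only *PDGFRB* passed it in the liver.

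Several libraries stood apart before any comparison. The cerebrum library of RES fetus 1 had 14.7% of its counts in 12 mitochondrial genes, against 2.73% to 6.89% in the other 13, and was the highest of the 14 for 23.3% of all 15151 genes retained in that tissue. The cerebrum library of CON fetus 23 was the highest for 19.2% of them. In the liver the mitochondrial share ran from 4.04% to 67.7%, and 4 libraries had over 30%, those of RES fetuses 1, 6 and 33 and of CON fetus 2. The muscle library of CON fetus 73 had a summed level of 2070 CPM over 7 neuron and Schwann cell genes, that of RES fetus 1 had 535, and the other 12 had 30.8 to 64.02. *STMN2*, a neuronal microtubule regulator, was at 896 CPM in CON fetus 73, with a median of 15.2 in the other 13 muscle libraries.

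*PRRX1* was a gene of the limb libraries. In muscle its counts were 374, 327, 484, 333, 361, 403 and 275 in CON fetuses 2, 23, 46, 54, 68, 69 and 73, and 185, 160, 398, 370, 365, 380 and 504 in RES fetuses 1, 6, 25, 33, 52, 55 and 70. In the liver 13 of the 14 libraries had 0 counts and CON fetus 68 had 1. In the cerebrum 13 libraries had 0 to 12 counts, with 3 at 0, and RES fetus 1 had 91. Every muscle library was above every cerebrum and liver library, and no other pair of tissues separated in this way.

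The mean level of *PRRX1* was 42.0 ± 11.4 CPM in muscle (SD, *n* = 14) and 1.29 ± 2.95 in the cerebrum, or 0.510 ± 0.466 in the 13 cerebrum libraries without RES fetus 1. Pooled over libraries, 4919 counts in muscle against 134 in the cerebrum gave 29.97 times the share of library totals, with a 95% counting interval of 25.2 to 35.9. Without both libraries of RES fetus 1 the ratio was 87.6 (64.9 to 121). Against the single count in the liver the ratio was 6485, with an interval of 1163 to 256184. The liver ratio depends on the scaling. Mean levels were 42.0 CPM in muscle and 0.0126 in the liver with TMM, and 54.8 and 0.00983 with library totals. These intervals cover counting error only. *PRRX1* and *TBX15* are on the list of muscle-specific genes that the study made from these libraries, so their muscle contrasts are given as a description, without a test.

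*TBX15* had the same order of tissues. In muscle the counts were 1307, 1306, 1609, 1183, 1065, 1115 and 630 in CON fetuses 2, 23, 46, 54, 68, 69 and 73, and 1179, 943, 952, 1006, 1123, 927 and 1015 in RES fetuses 1, 6, 25, 33, 52, 55 and 70. In the liver 9 libraries had 0 counts and none had more than 2, 6 in all. In the cerebrum the counts ran from 0 to 9 in CON and from 1 to 15 in RES except for RES fetus 1, which had 334. RES fetus 1 was thus far above the other cerebrum libraries and still below the lowest muscle library.

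The mean level of *TBX15* was 132 ± 30.3 CPM in muscle (SD, *n* = 14) and 3.67 ± 11.1 in the cerebrum, or 0.719 ± 0.891 without RES fetus 1. The pooled share in muscle was 32.1 times that in the cerebrum (29.0 to 35.6), 198 times without RES fetus 1 (153 to 262), and 3375 times that in the liver (1550 to 9198). The omission of 1 fetus therefore moved the ratio to the cerebrum from 29.97 to 87.6 for *PRRX1* and from 32.1 to 198 for *TBX15*. The contrast of *TBX15* with the liver depends on the scaling. Its mean levels were 132 CPM in muscle and 0.0780 in the liver with TMM, and 170 and 0.0518 with library totals.

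*PDGFRB* did not keep to the limb. In the cerebrum its level ranged from 10.8 CPM in CON fetus 23 to 67.6 in RES fetus 1, with a median of 28.2. In the liver it ranged from 157 in RES fetus 33 to 389 in RES fetus 52, with a median of 317. In muscle it ranged from 95.4 in CON fetus 73 to 194 in RES fetus 70, with a median of 143. With TMM the cerebrum range lay wholly below the other two, while the liver and muscle ranges overlapped, and in each of the 14 fetuses the liver was above the muscle. With library totals alone the liver was above the cerebrum in 13 of 14 fetuses and the ranges overlapped, since the liver of RES fetus 1 was at 32.2 CPM and the cerebrum ran from 8.02 to 71.0.

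**Figure D1:**
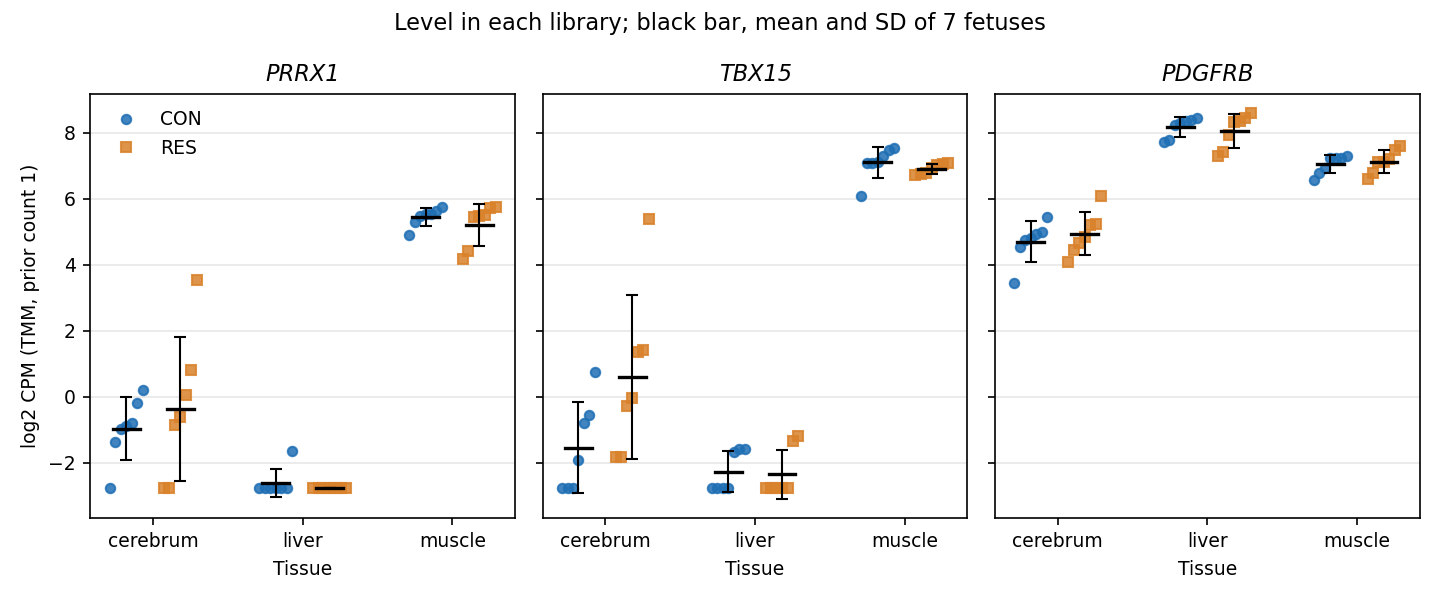
Level of each gene in the 42 libraries as log2 CPM (y axis, TMM scaling, prior count 1) by tissue (x axis), with CON as circles, RES as squares, and the mean and SD of 7 fetuses in black. *PRRX1* and *TBX15* are near the bottom of the scale in the liver and cerebrum, apart from RES fetus 1 in the cerebrum, whereas *PDGFRB* is highest in the liver.

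*PDGFRB* is not on the list of muscle-specific genes, and its contrasts were tested with edgeR's quasi-likelihood test over all genes with Benjamini-Hochberg adjustment. It was higher in muscle than in the cerebrum by 2.17 ± 0.18 on the log2 scale (SE, adjusted *p* = 3.14e-14), a direction called for 32.2% of the 15972 genes tested. It was higher in the liver than in the cerebrum by 3.22 ± 0.19 (adjusted *p* = 6.38e-20), a direction called for 38.5% of genes. Muscle minus liver was -1.05 ± 0.17 (adjusted *p* = 4.70e-07), a direction called for 36.6% of genes. In either direction 68.1% of genes were called between muscle and cerebrum, 83.6% between liver and cerebrum and 82.0% between muscle and liver, so that a call alone was common. Without the 7 libraries that stood apart these differences were 2.31, 3.52 and -1.20, all past the threshold. The levels of *PRRX1* and *TBX15* were thus highest in the limb libraries, while those of *PDGFRB* were highest in the liver with TMM. Levels in whole tissue do not tell limb mesenchyme from the other cells of the limb libraries.

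The contrasts of *PDGFRB* with the liver depended on the scaling. With library totals alone liver minus cerebrum was 2.24 ± 0.25 (adjusted *p* = 3.57e-11, edgeR, in a range of 3.43e-83 to 3.57e-11 over its alternatives). Muscle minus liver was then -0.09 ± 0.23 (adjusted *p* = 0.719, edgeR, the highest over its alternatives, of which the lowest was 2.69e-11), and the liver was above the muscle in 8 of 14 fetuses. The median difference of all genes between muscle and liver was 0.23 with TMM and 1.34 with library totals, and a change of scaling moves all genes alike, so that the distance of *PDGFRB* from that median, -1.25, is the same under either by construction and does not bear on the choice. The genes called higher in muscle were 7263 of 13105 with TMM, which is 55.4%, and 11033 of 13645 with library totals, which is 80.9%. In the contrast of liver with cerebrum the share called higher in the liver went from 46.01% to 23.2%.

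Within the liver *PDGFRB* was low where mitochondrial counts were high. The levels were 220 CPM in CON fetus 2 and 170, 244 and 157 in RES fetuses 1, 6 and 33, the 4 libraries with over 30% of mitochondrial counts. CON fetus 23, with 16.4%, was at 211. The other 9 libraries, at 4.04% to 12.6%, lay between 299 and 389. The part of the mitochondrial share in the *PDGFRB* level was not tested.

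**Figure D2:**
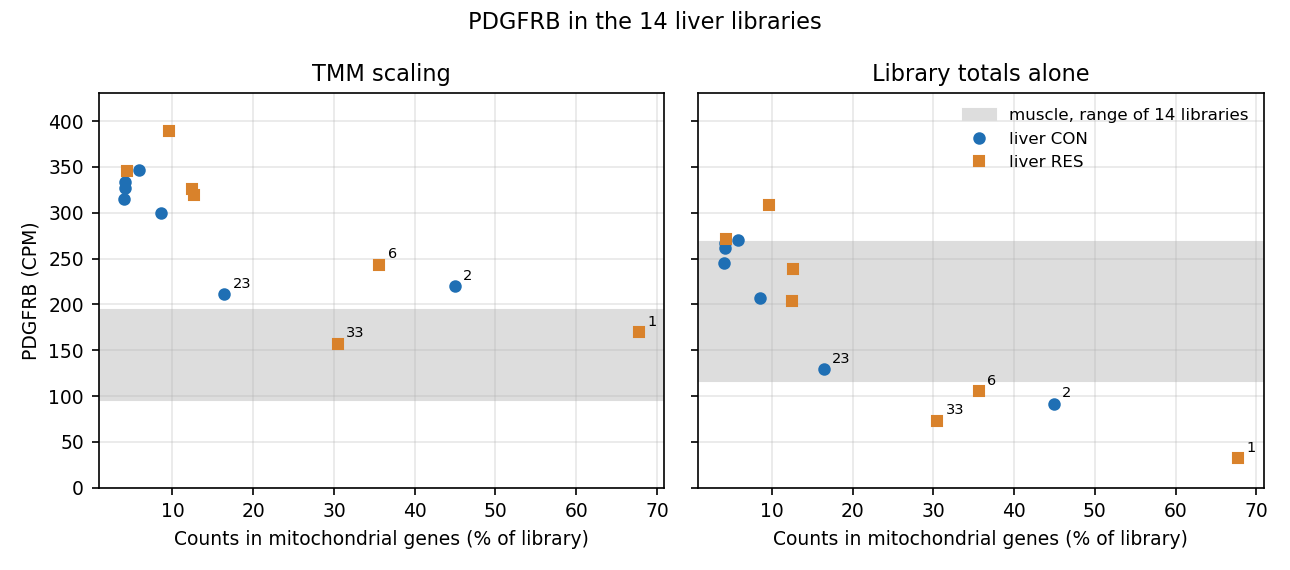
*PDGFRB* in the 14 liver libraries (y axis, CPM) against the share of library counts in mitochondrial genes (x axis, percent), with TMM scaling on the left and library totals alone on the right, and the range of the 14 muscle libraries in grey. With TMM 12 of the 14 liver libraries lie above the muscle range, and with library totals 3 do.

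The restricted diet was compared with the control diet within each tissue. The study itself took genes reported to differ by diet from an earlier analysis of these animals with other software. It then compared co-expression and connectivity between the diets. None of the 3 genes passed the adjusted threshold in any tissue, and the edgeR test called 0 genes at an adjusted *p* under 0.05 in each tissue. At an unadjusted *p* under 0.05 it called 1481 genes in muscle (9.91% of those tested), 386 in the cerebrum (2.55%) and 3260 in the liver (24.1%). DESeq2's Wald test called 14, 0 and 78 genes at the adjusted threshold, none of them among the 3.

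In muscle *PRRX1* was 44.1 ± 7.84 CPM in CON and 39.9 ± 14.4 in RES (SD, *n* = 7 each). RES fetuses 1 and 6, at 21.3 and 18.1, were the lowest of the 14, and the other 5 RES fetuses were within the CON range or barely above it. The difference on the log2 scale, RES minus CON, was -0.25 ± 0.21 (SE, edgeR, unadjusted *p* = 0.266, adjusted *p* = 0.682). It was -0.13 without RES fetus 1 and -0.11 without RES fetus 6.

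*TBX15* in muscle was 143 ± 39.0 CPM in CON and 120 ± 13.1 in RES. CON fetus 73, at 68.3, was below all other muscle libraries, and the RES fetuses lay between 106 and 136. The difference was -0.25 ± 0.17 (edgeR, unadjusted *p* = 0.154, adjusted *p* = 0.612). Without CON fetus 73, the library with the high neuronal transcripts, it was -0.35 ± 0.10 with an unadjusted *p* of 0.00237, and the adjusted *p* was 0.484, in a range of 0.484 to 0.871 over the omissions of single fetuses.

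*PDGFRB* in muscle was 134 ± 23.9 CPM in CON and 143 ± 34.5 in RES, a difference of 0.04 ± 0.15 (edgeR, adjusted *p* = 0.937). Its liver level was 293 ± 55.1 CPM under CON and 279 ± 89.7 under RES, a difference of -0.13 ± 0.21 (edgeR, adjusted *p* = 0.680). The liver difference was 0.16 ± 0.17 without the 4 libraries high in mitochondrial counts. The diets overlapped in both tissues.

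In the cerebrum the largest differences between diets came from RES fetus 1. *TBX15* had counts of 0, 2, 9, 1, 4, 0 and 0 in CON fetuses 2, 23, 46, 54, 68, 69 and 73, and of 334, 5, 14, 15, 5, 1 and 1 in RES fetuses 1, 6, 25, 33, 52, 55 and 70. Its difference was 3.998 ± 1.27 on the log2 scale (edgeR, unadjusted *p* = 0.00620, adjusted *p* = 0.999), and 1.58 ± 0.85 without RES fetus 1 (unadjusted *p* = 0.0820). *PRRX1* differed by 2.18 ± 0.97 (edgeR, unadjusted *p* = 0.0395, adjusted *p* = 0.999), and by 0.46 ± 0.75 without that fetus. *PDGFRB* differed by 0.28 ± 0.29 (edgeR, adjusted *p* = 0.999), and by 0.01 without it. Exact permutation tests of the difference of mean log2 CPM over all 3432 splits of the 14 fetuses, two-sided, gave *p* = 0.0589 for *TBX15* and 0.570 for *PRRX1*.

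Whether the diet effect differed between tissues was tested over the 42 libraries. The unadjusted *p* was 5.52e-04 for *TBX15*, 0.0276 for *PRRX1* and 0.587 for *PDGFRB*, and the adjusted *p* was 0.781, 0.829 and 0.908 (edgeR, 5.62% of genes under an unadjusted 0.05 and 0 under an adjusted 0.05). Without the 7 libraries that stood apart the unadjusted *p* was 0.0206, 0.484 and 0.498.

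The cerebrum library of RES fetus 1 was then compared with the other 13 over the marker lists. Only genes with a symbol could be matched, which were 8 of 29 for limb mesenchyme and connective tissue, 16 of 27 limb patterning factors, 11 of 13 for skeletal muscle, 10 of 14 for pericytes and smooth muscle and 7 of 10 for neurons and Schwann cells. They were 3 of 8 for skin epithelium and for endothelium, 3 of 11 for meninges, 6 of 11 for stellate cells and for blood, 6 of 10 for cartilage and 6 of 8 for hepatocytes, and the other genes of these lists were not analysed here. The 8 matched genes of limb mesenchyme and connective tissue were all above every other cerebrum library, beside 23.3% of all genes. Their summed level was 162 CPM, with a median of 1.51 and a maximum of 8.48 in the other 13. *TNMD*, a membrane protein of tendon, was at 45.2 CPM, or 25.2% of its mean in muscle, and *TWIST1*, a transcription factor of head and limb mesenchyme, at 51.5 CPM, or 56.4%. *PRRX1* stood at 27.2% of its muscle mean and *TBX15* at 31.9%.

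Of the 16 limb patterning factors, 6 were above the other 13 libraries, *HOXD10* with 1 count among them. *HOXA10*, *HOXA11*, *HOXC10*, *HOXD11*, *HOXD13* and *TBX4*, transcription factors that pattern the limbs along their length, or, in the case of *TBX4*, the hind limb, had 0 counts in this library, which allows up to 0.377 CPM. *HOXA10* was 73.4 ± 10.9 CPM in muscle and *TBX4* 49.8 ± 19.1 (SD, *n* = 14). *PITX1*, which specifies the hind limb, had 2 counts, or 0.244% of its muscle mean. The others above all other cerebrum libraries were *HAND2* with 4 counts, *FGF10* at 4.90 CPM against at most 4.89, *TBX2*, *MSX2* and *MSX1*. *MSX1*, a homeobox gene of head and limb mesenchyme, was at 23.3 CPM against at most 12.7.

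Transcripts of other cell types moved in the same library. The hepatocyte list summed to 5909 CPM against a median of 89.3 and a maximum of 1157, with 5 of 6 genes above the other 13. Most of this sum was *TTR*, a thyroid hormone carrier made by liver and choroid plexus, at 5624 CPM, beside a mean of 2274 in the liver. *AFP*, *SERPINA1* and *TF* were at 94.4, 74.0 and 45.0 CPM, beside liver means of 47120, 81570 and 11780. *HNF4A*, the defining hepatocyte factor, had 0 counts, which allows up to 0.377 CPM, beside a mean of 49.0 CPM in the liver. A share of its liver mean like that of *AFP*, *SERPINA1* or *TF* would lie below that bound. *ALB*, the serum albumin gene, was at 71.5 CPM in this library, beside a mean of 24420 in the liver. The blood list summed to 273 CPM against a median of 9.69, with 6 of 6 genes highest and *HBA*, the alpha globin gene, the most abundant. The skeletal muscle list summed to 133 CPM against 11.1, with 8 of 11 genes highest, *MYH3* the most abundant and *PAX7* at 0. Skin epithelium (3 of 3), endothelium (3 of 3), pericytes and smooth muscle (7 of 10), stellate cells (5 of 6), cartilage (5 of 6) and meninges (2 of 3) also had genes above the other 13. The neuron and Schwann cell list was the lowest of the 14, at 1437 CPM against 2149 to 6694. Outside RES fetus 1, *TBX15* in the cerebrum was highest in RES fetuses 25 and 33, at 14 and 15 counts. Their blood lists summed to 91.4 and 26.2 CPM. Their limb mesenchyme and connective tissue lists summed to 7.97 and 8.20 CPM, while CON fetuses 23 and 46, with 2 and 9 counts of *TBX15*, had 7.96 and 8.48. The part of all these transcripts in the *PRRX1* and *TBX15* values was not tested.

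**Figure D3:**
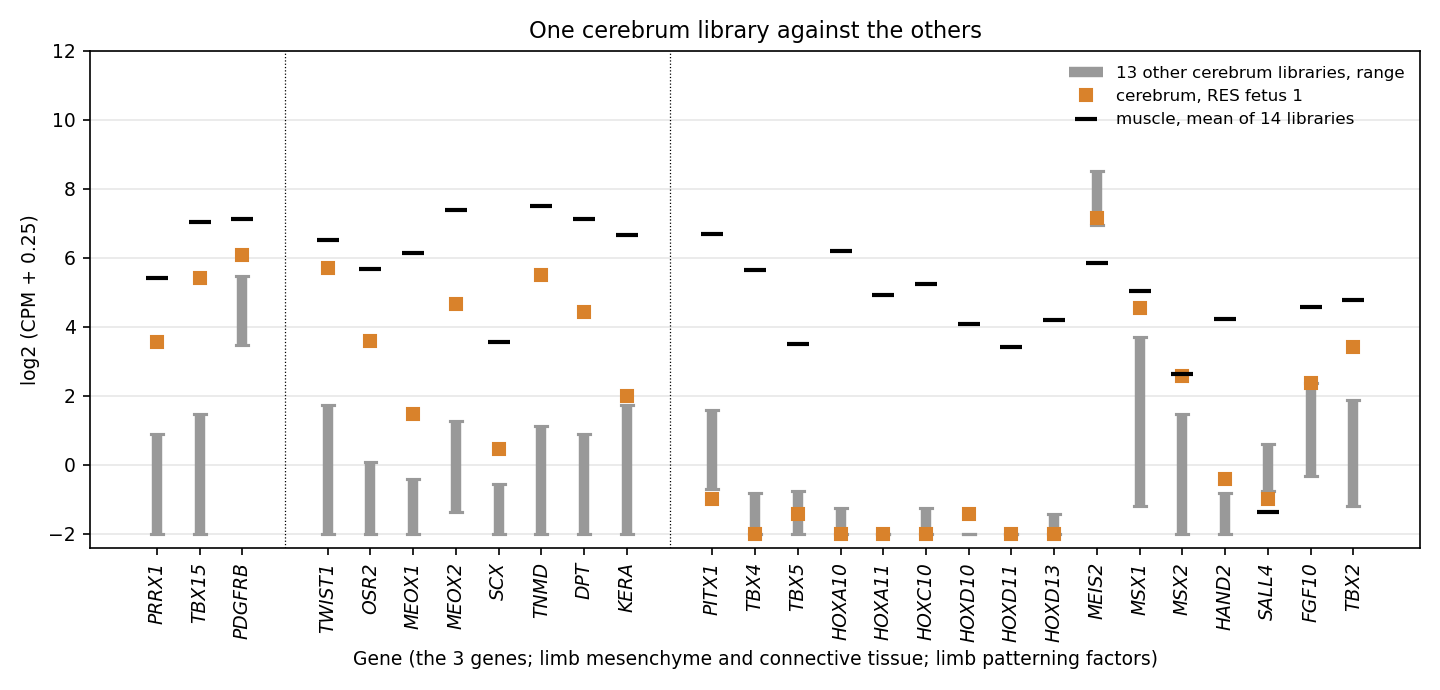
Level in the cerebrum library of RES fetus 1 (squares), the range of the other 13 cerebrum libraries (grey) and the mean of 14 muscle libraries (black dashes) as log2 (CPM + 0.25) on the y axis, for the 3 genes, 8 genes of limb mesenchyme and connective tissue and 16 limb patterning factors along the x axis. The squares rise above the grey range for the first 2 sets, whereas *HOXA10*, *HOXA11*, *HOXC10*, *HOXD11*, *HOXD13* and *TBX4* are at the bottom of the scale.

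The levels of the same lists were then described in the muscle libraries. Symbols were known only for genes in the study's supplementary tables, some of which were chosen on these libraries, so these counts are not independent evidence. Many of these genes also passed the low-count filter only through muscle, among them *TBX4*, *HOXA10*, *HOXA11*, *HOXC10*, *HOXD11* and *HOXD13*, which averaged at most 0.0534 CPM in the cerebrum, so that their direction was fixed and the counts and medians are a description only. Of all genes tested, 32.2% were called higher in muscle than in the cerebrum and 35.9% lower. Of 16 limb patterning factors 14 were higher in muscle and 2 lower, *MEIS2* and *SALL4*, with a median log2 difference of 7.38 beside -0.06 over all genes. *HOXA11* and *HOXD11* had 0 counts in all cerebrum libraries, and the median was 7.38 also with both at the bound that 3 counts over the 14 libraries give. The 8 matched genes of limb mesenchyme and connective tissue were all higher than in the cerebrum, with a median of 6.26. The tendon gene *TNMD* was at 180 ± 45.2 CPM, *MEOX2*, a homeobox gene of somites and limb muscle, at 168 ± 30.5, *DPT*, which encodes the matrix protein dermatopontin, at 140 ± 28.2, and *KERA*, which encodes the proteoglycan keratocan, at 100 ± 33.8 (SD, *n* = 14). Of 11 skeletal muscle genes 10 were higher than in the cerebrum, and the embryonic myosin gene *MYH3* averaged 2286 ± 1209 CPM.

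The summed levels of these lists varied from library to library. The skeletal muscle list ran from 1068 CPM in RES fetus 25 to 7651 in RES fetus 6, and the cartilage list from 48.8 in RES fetus 1 to 234 in RES fetus 25. *PRRX1* was lowest in RES fetus 6, the library richest in skeletal muscle transcripts. *PDGFRB* was second highest in RES fetus 25, the library poorest in them.

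*PRRX1* and *PDGFRB* rose and fell together over the 14 muscle libraries. Pearson's *r* of log2 CPM was 0.749 (permutation *p* = 0.00123, adjusted *p* = 0.00738 over 6 relations) and Spearman's rho 0.710 (*p* = 0.00623, adjusted *p* = 0.0374). It was 0.780 within CON and 0.853 within RES. Without RES fetuses 6 and 1, the 2 farthest from the median of *PRRX1*, *r* was 0.716, with an adjusted *p* of 0.0537, and without RES fetus 1 alone it was 0.657, with an adjusted *p* of 0.0504 (permutation, from 0.00330 over the omissions of single fetuses).

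*TBX15* did not follow either gene beyond the error of 14 libraries. Its *r* was 0.379 with *PRRX1* (permutation *p* = 0.184, adjusted *p* = 0.220) and 0.148 with *PDGFRB* (*p* = 0.619, adjusted *p* = 0.619), with rho of 0.393 and 0.116. Between diets its *r* with *PRRX1* was 0.872 in CON and 0.0545 in RES, and that with *PDGFRB* 0.567 and -0.453. Neither difference passed an exact permutation of the fetuses over the diets, two-sided (*p* = 0.127 and 0.263, adjusted *p* = 0.381 and 0.527 over 6). Without the 2 farthest fetuses *r* was 0.599 for *PRRX1* with *TBX15* and -0.0715 for *TBX15* with *PDGFRB*.

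**Figure D4:**
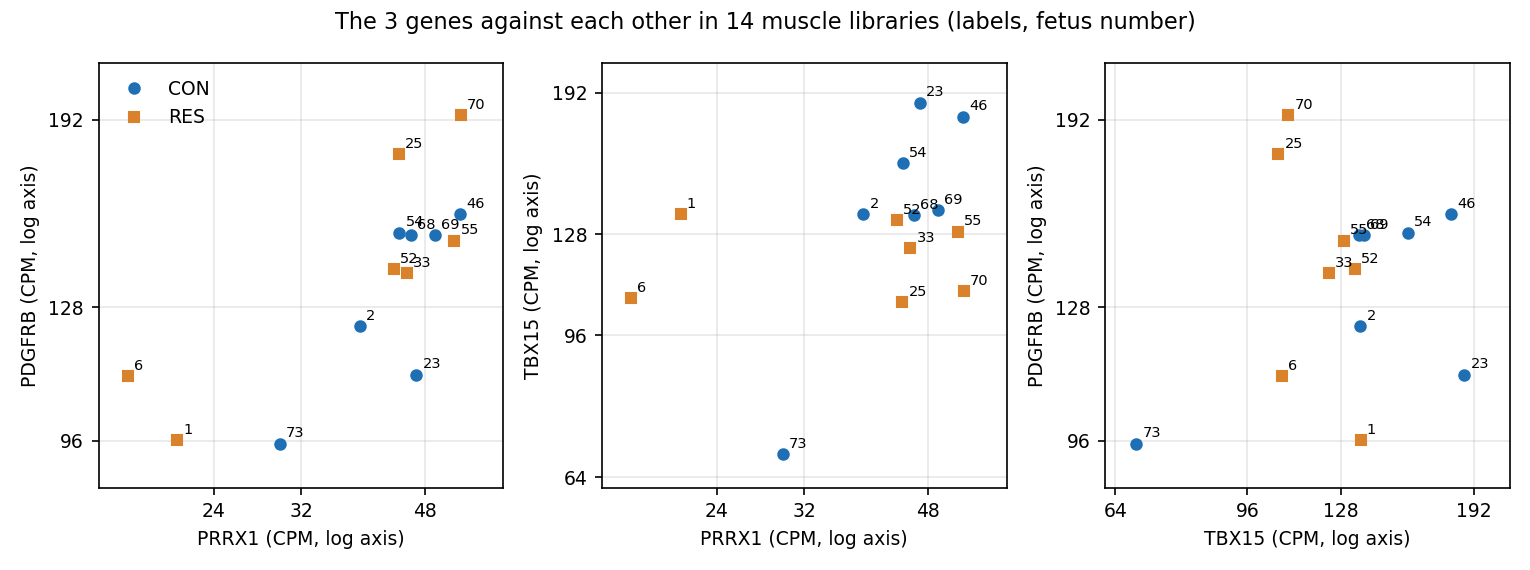
The 3 genes against each other in the 14 muscle libraries, each axis in CPM on a log scale, with CON as circles, RES as squares and the fetus number beside each point. *PRRX1* and *PDGFRB* rise together (*r* = 0.749), RES fetuses 1 and 6 are the lowest in *PRRX1*, and CON fetus 73 is the lowest in *TBX15* and *PDGFRB*.

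In the cerebrum *r* was 0.640 for *PRRX1* with *TBX15* (permutation *p* = 0.0218, adjusted *p* = 0.0436), 0.657 for *PRRX1* with *PDGFRB* (*p* = 0.0155, adjusted *p* = 0.0436) and 0.587 for *TBX15* with *PDGFRB* (*p* = 0.0362, adjusted *p* = 0.0543). Spearman's rho was 0.517, 0.603 and 0.457 in the same order (permutation, adjusted *p* = 0.124, 0.076 and 0.154), so none passed the threshold by ranks. Without RES fetus 1 the 3 values of *r* were 0.188, 0.384 and 0.236, so the relations rested on that library, and with it and the next farthest fetus left out *r* was 0.112, 0.509 and 0.281.

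The lists ordered themselves around the 3 genes in different ways in muscle. The following values of *r* are over 14 libraries that share their tissue mixture and are given as a description. Of the 15 limb patterning factors retained, 13 had an *r* above 0 with *PRRX1* (median 0.569) and 13 with *PDGFRB* (median 0.615), whereas 8 did with *TBX15* (median 0.003), beside 50.1%, 50.1% and 50.3% of all 14946 genes. *HAND2*, a factor of the posterior limb bud, had an *r* of 0.86 with *PRRX1* and 0.13 with *TBX15*, and *FGF10*, the growth factor that keeps the limb bud growing, 0.82 and 0.38. The exceptions for *PRRX1* and *PDGFRB* were *HOXC10*, with -0.67 and -0.78, and *MEIS2*, with -0.32 and -0.11.

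Skeletal muscle genes were turned the other way. None of the 11 had an *r* above 0 with *PRRX1* (median -0.561) or *PDGFRB* (median -0.628), and all 11 did with *TBX15* (median 0.306). The myogenic factor *MYOG* was at -0.56, 0.31 and -0.62 with *PRRX1*, *TBX15* and *PDGFRB*, and *CKM*, muscle creatine kinase, at -0.66, 0.18 and -0.76. With any 1 library left out the counts stayed at 0, 11 and 0 of 11, while the medians ran from -0.659 to -0.400, from 0.198 (CON fetus 73) to 0.472 (RES fetus 6) and from -0.861 to -0.540.

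The 8 genes of limb mesenchyme and connective tissue had a median *r* of 0.409 with *PRRX1*, 0.374 with *TBX15* and 0.149 with *PDGFRB*. With 1 library left out these ran from 0.241 (RES fetus 1) to 0.528 (RES fetus 70), from 0.284 to 0.450 and from 0.0370 (CON fetus 73) to 0.447 (RES fetus 70), so their order was not fixed. *TWIST1* followed *PRRX1* and *PDGFRB* (0.86 and 0.89) and not *TBX15* (0.18), and *MEOX2* had its highest value with *TBX15* (0.72). The 6 cartilage and sclerotome genes had medians of 0.572, -0.003 and 0.525, and those with *PRRX1* and *PDGFRB* were 0.367 and 0.347 without RES fetus 1. The 3 skin epithelium genes had medians of 0.619, -0.239 and 0.825 (from -0.430 without CON fetus 73 to -0.0879 without CON fetus 23 for *TBX15*), with the basal keratin gene *KRT5* at 0.91 with *PDGFRB*. The 6 neuron and Schwann cell genes had medians of -0.468, -0.500 and -0.521, that with *PRRX1* was -0.703 without RES fetus 6 and -0.249 without RES fetus 1, and that with *TBX15* was 0.015 without CON fetus 73. CON fetus 73 thus decided the relation of *TBX15* to neuronal transcripts.

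**Figure D5:**
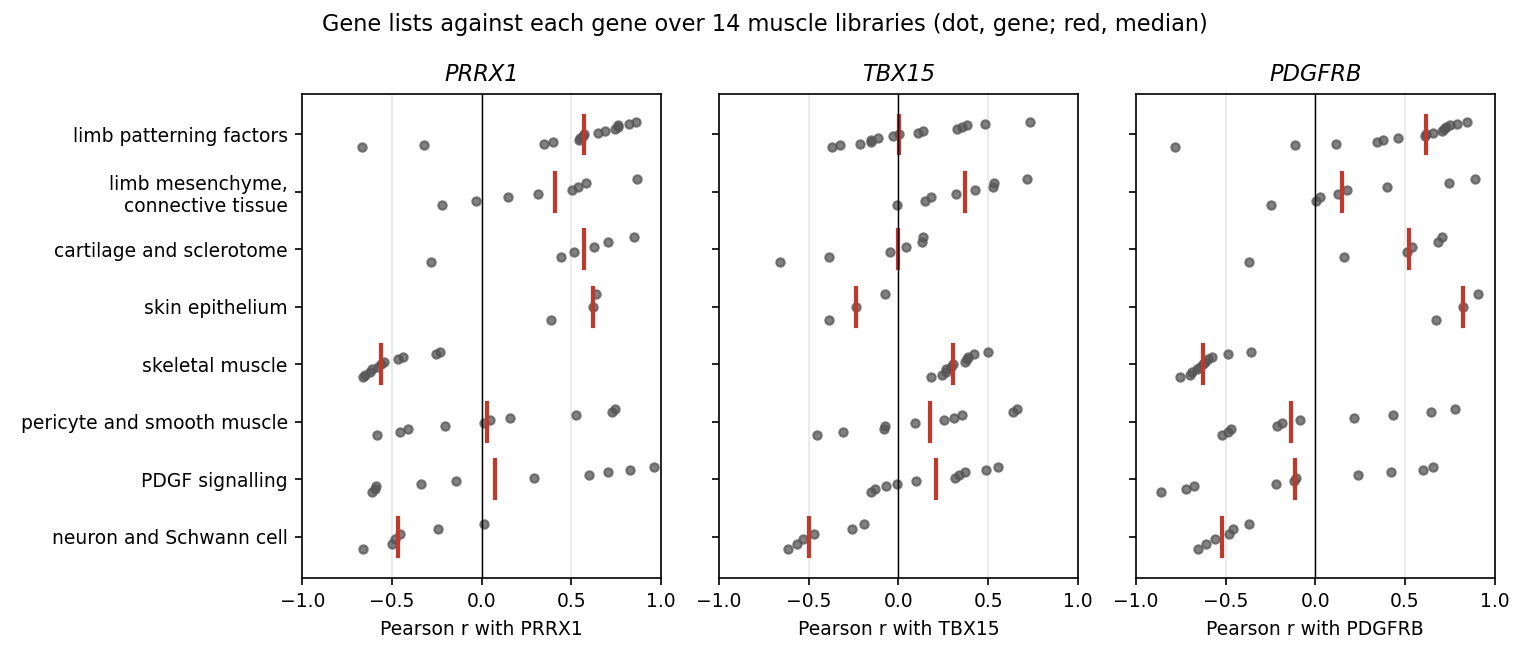
Pearson's *r* (x axis) of each listed gene with *PRRX1*, *TBX15* and *PDGFRB* over 14 muscle libraries, by list (y axis), with a dot per gene and the median in red. Skeletal muscle genes lie left of 0 for *PRRX1* and *PDGFRB* and right of 0 for *TBX15*, and limb patterning factors lie mostly right of 0 for *PRRX1* and *PDGFRB*.

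Pericyte and smooth muscle genes were spread on both sides of 0 in muscle. Of 10 such genes 4 had an *r* above 0 with *PDGFRB*, beside 50.1% of all genes, with a median of -0.133. The median was -0.285 without CON fetus 73 and 0.0862 without RES fetus 25, and 3 to 6 genes were above 0 when 1 library was left out. *NDUFA4L2* was at 0.78 and *FOXF2* at 0.64, while *ACTA2*, smooth muscle actin, was at -0.49 and *KCNJ8*, a potassium channel of pericytes, at -0.47. *NOTCH3* and *CSPG4*, a receptor and a surface proteoglycan of pericytes, had higher values with *TBX15*, 0.64 and 0.66, than with the other two. In the liver the stellate cell genes *HAND2*, *HGF* and *NGFR* were at 21.8, 4.83 and 57.3 CPM, and all 6 genes of that list were higher than in the cerebrum, beside 38.5% of all genes. *HAND2* and *HGF*, at 0.0589 and 0.132 CPM in the cerebrum, passed the low-count filter only through liver and muscle. Their direction was thus fixed, and the count is a description only. The list was not particular to the liver. In muscle these 3 genes were at 18.6, 2.94 and 111 CPM, and the list summed to 636 CPM on average, most of it *DES*, an intermediate filament gene also of skeletal muscle, against 165 in the liver. Between muscle and liver 2 of the 6 genes were higher and 1 lower in muscle, beside 45.5% and 36.6% of all genes.

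Of the genes of the platelet-derived growth factor pathway 10 of 18 could be named. The ligands were *PDGFB*, at 18.5 CPM in muscle, 12.6 in the liver and 5.47 in the cerebrum, and *PDGFC*, at 22.9, 1.88 and 3.25. *PLAT*, the tissue plasminogen activator that can release active PDGFC, was at 58.5, 12.7 and 23.7. Against the cerebrum 6 of the 10 pathway genes were higher in muscle and 1 lower (edgeR, adjusted *p* under 0.05), beside 32.2% and 35.9% of all genes. Against the liver 7 were higher and 2 lower in muscle, beside 45.5% and 36.6%. *LRP1*, a coreceptor, was higher in muscle than in the cerebrum by 0.96 and than in the liver by 1.36 on the log2 scale.

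Downstream of the receptor, *PTPN11*, a phosphatase that binds it, had an *r* of 0.60 with *PDGFRB* and 0.96 with *PRRX1* in muscle, and the adaptor *GRB2* one of -0.86 with *PDGFRB*. None of the 10 genes changed with diet after adjustment. In muscle 2 of the 10 were under an unadjusted *p* of 0.05, *PIK3R1* and *STAT3*, beside 9.91% of all genes. In the liver 3 were, *PDGFC*, *GRB2* and *PTPN11*, all with a lower estimate in RES, beside 24.1%, and in the cerebrum 0 were, beside 2.55%. *CSF1R*, a receptor of the same family that marks macrophages, was at 22.5 CPM in the liver, 13.8 in muscle and 3.21 in the cerebrum with TMM. This was the order of tissues of *PDGFRB* under that scaling. Muscle minus liver was -0.71 on the log2 scale for *CSF1R*, and the median of all genes went from 0.23 to 1.34 with library totals. The order of liver and muscle therefore depends on the scaling for *CSF1R* also.

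The genes most like each of the 3 were sought over the 14 libraries of a tissue, among genes with a symbol. In muscle, among 4677 genes, the highest *r* with *PRRX1* were those of *WWTR1*, the transcriptional coactivator TAZ (0.979), *SETBP1* (0.969), *PTPN11* (0.964), the kinase gene *PRKD3* (0.963) and *WDFY1* (0.954). The lowest were those of *TRMT112* (-0.947), *RRP9* (-0.937) and *NME1* (-0.935), genes of RNA methylation, ribosomal RNA processing and nucleotide metabolism. RES fetuses 1 and 6 carried part of these values. Without them *WWTR1* was at 0.919, *PTPN11* at 0.782 and *TRMT112* at -0.660. With *PRRX1* 16.1% of all genes had an *r* over 0.6, compared with 2.05% for *TBX15* and 9.21% for *PDGFRB*.

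With *TBX15* the highest were *TNFSF4* (0.834), the mesenchymal growth factor gene *FGF7* (0.814), the fibronectin receptor subunit *ITGA5* (0.796), *STX5* (0.793) and *MRM3* (0.790), and the lowest *PRMT2* (-0.857), *SLC6A17* (-0.849) and *EIF1B* (-0.837). Without CON fetuses 73 and 23, *FGF7* was at 0.675 and *MRM3* at 0.410. With *PDGFRB* the highest were the collagen genes *COL26A1* (0.910) and *COL27A1* (0.901), *KRT5* (0.906), *TMEM132C* (0.906) and *IRX4* (0.905), and the lowest *TAGLN3* (-0.911), *MYL12B* (-0.910) and *ABCB6* (-0.907).

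In the cerebrum *PDGFRB* was most like *EPB41L2* (0.938), *HMCN1*, which encodes the matrix protein hemicentin (0.910), and *FYCO1* (0.909), and these were at 0.907, 0.905 and 0.861 without RES fetus 1. In that tissue *PRRX1* was most like *TG* (0.916), *ADGRE5* (0.869) and the arterial connexin gene *GJA5* (0.859), and *TBX15* most like *MAMSTR* (0.925), *IGSF10* (0.923) and *ALDH1A3*, which encodes an enzyme of retinoic acid synthesis (0.921). Without RES fetus 1 these were at 0.836, 0.737 and 0.738 for *PRRX1* and at 0.818, 0.828 and 0.837 for *TBX15*. The other cerebrum libraries had at most 12 counts of *PRRX1* and 15 of *TBX15*. The median levels of these partner genes ran from 0.383 CPM for *TG* to 3.02 for *ADGRE5*. These values of *r* therefore rest on few counts. In the liver *PDGFRB* was most like *ZNF7* (0.967), *ZCCHC2* (0.962) and *RETREG3* (0.957).

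The spread of the 3 genes between fetuses was set beside that of all genes. In muscle the SD of log2 CPM within diets was 0.49 for *PRRX1*, 0.34 for *TBX15* and 0.32 for *PDGFRB*, at the 78.0, 63.9 and 60.2 percentiles of 14947 genes with a median of 0.26. In the liver that of *PDGFRB* was 0.45, below the median of 0.49. In the cerebrum *PDGFRB* had 0.60, and *PRRX1* and *TBX15*, which rest on few counts there, had 1.69 and 2.02, beside a median of 0.53.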

How the data were processed

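Cerebrum, liver and hind limb muscle libraries of 14 bovine fetuses were analysed. The authors prepared strand-specific libraries, aligned paired reads to ARS-UCD 1.2 with STAR 2.7.3a and the Ensembl annotation, and deposited raw counts per gene from its GeneCounts option, without normalization. Which strand column was kept is not given in the sources used here.

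Counts were analysed with edgeR 4.0.16 and DESeq2 1.42.0 in R 4.3.3, and with scipy 1.17.1, pandas 2.3.3 and numpy 2.4.6 in Python 3.11.15. Genes with CPM below 1 in at least 80% of libraries were left out, per tissue for diet and correlations and over the 42 libraries for tissue contrasts and the interaction. edgeR's quasi-likelihood test used TMM factors and fetal sex as covariate, with Benjamini-Hochberg adjustment over all genes retained and a threshold of 0.05. Levels are CPM with TMM factors, and log2 CPM has a prior count of 1. Correlation *p* values came from 100000 permutations, and those between diets from all 3432 splits. Of 9 planned relations 6 could be computed, since only *PDGFRB* was retained in the liver. Rank correlations in the cerebrum are not reported here. Floors are 3 counts, and intervals are exact at 95%. The edgeR step was tested on simulated data. No 2 libraries of a group agreed within counting noise. The spread between fetuses, 7 per diet, exceeds counting error and limits precision.

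The fetus number in the labels marks the 3 tissues of 1 animal. Deviations from the diet means of the same fetus correlated with a median *r* of 0.181 between muscle and liver, 0.117 between muscle and cerebrum and 0.0212 between liver and cerebrum. The same fetus was the best match in 6, 3 and 1 of 14 cases in that order, so the pairing rests on the labels. The main models had no block for the fetus, and the block was an alternative.

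Named were the 3 genes, listed pathway and marker genes with the largest levels or differences, and in muscle the 5 highest and 3 lowest *r* per gene (3 highest in other tissues). Genes named for their *r* with the 3 genes or for their place in 1 library were picked after their values were seen. The genes and lists were chosen with earlier results of these data known. Symbols came from the study's supplementary tables and cover 5128 genes. Other settings were DESeq2's size factors and tests, library totals alone, other filters, no sex term, males only, exact permutation, other transformations and the omission of fetuses. The omission of 7 libraries that stood apart was added after the data were seen.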

Additional observations from a re-analysis of the deposited data

Results flagged for a closer look

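*TBX15* in the muscle library of CON fetus 73 was far below the other 6 CON fetuses, at 6.52 on the log2 CPM scale of that tissue against 7.46 to 7.92. Its gap to the nearest fetus was 0.667 of the range of the group. This was 1 of 14 groups of 7 fetuses examined, and chance marks about 1 group in 20. The same library held the most neuron and Schwann cell transcripts of the 14 muscle libraries, and the part of these in the *TBX15* level was not tested.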

How the results depend on the processing

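No diet difference of the 3 genes passed the adjusted threshold under any alternative run, the 3 muscle against cerebrum differences kept their direction under all of them, and that of *PDGFRB* kept its call. Counts of genes called for diet were 0 with edgeR under every alternative, and DESeq2 called 78 genes in the liver, 14 in muscle and 2 for the interaction. DESeq2 gave no *p* for *TBX15* in the cerebrum. With library totals alone muscle minus liver for *PDGFRB* was -0.091 and lost its call. With a block for the fetus it was -1.03, and no call of these genes changed with the pairing. The uncalled diet difference of *PDGFRB* changed sign without the libraries that stood apart, to -0.0095 in muscle, 0.16 in the liver and -0.11 in the cerebrum, and ran from -0.062 to 0.12 in muscle when each fetus was left out. In muscle *r* ran from 0.657 to 0.821 for *PRRX1* with *PDGFRB* and from -0.246 to 0.315 for *TBX15* with *PDGFRB* over these omissions, and was 0.716 and -0.0715 without the 2 farthest fetuses. In the cerebrum *r* ran from 0.188 to 0.807 for *PRRX1* with *TBX15*, from 0.384 to 0.826 for *PRRX1* with *PDGFRB* and from 0.236 to 0.720 for *TBX15* with *PDGFRB*. There *PRRX1* with *TBX15* fell below the threshold with library totals (0.614), without sex means (0.617) and without the 2 farthest fetuses (0.112), as did *PRRX1* with *PDGFRB* (0.517, 0.642 and 0.509), while *TBX15* with *PDGFRB* passed it after the variance stabilizing transformation (0.670). The cause of these changes was not tested. Depth limits *PRRX1* and *TBX15* in the liver and cerebrum, where most libraries had under 16 counts.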
